A study of Oryctolagus cuniculus with 8 samples.

Results

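Non-side-population (NSP) cells of the rabbit limbal epithelium are the subject here: 4 of the 8 RNA-seq samples of a series in which Hoechst 33342, a DNA dye, was used to sort these cells apart from a dye-excluding side population (the other 4 samples, not used here). The 4 NSP samples were chosen by their label alone and no measured value entered the choice. All came from New Zealand white rabbits, an unmodified albino strain. No treatment, age, sex or genotype is labelled. The libraries were made from total RNA and read on an Ion Proton sequencer. Whether each of the 4 stands for its own animal is not labelled, so the spread between them may be partly technical. The columns of the deposited table name the group and not the sample, so the numbers 1 to 4 follow the order of the columns, and the values of a gene are given in that order throughout.

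The limbus is the narrow rim where the cornea meets the conjunctiva, and its basal epithelium holds the stem cells that renew the corneal surface. As their progeny move towards the centre of the cornea and upwards, they replace limbal keratins with the corneal pair keratin 3 and keratin 12. A dye-excluding side population is a small share of a tissue, so NSP cells are the bulk of the limbal epithelium, and limbal, corneal and conjunctival features can occur side by side in such a sort. The corneal epithelium is known for carrying very large amounts of a few metabolic enzymes, lactate dehydrogenase B and enolase 1 among them.

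Each NSP library held between 20445565 and 23529101 exon reads. Levels are given as TPM, that is reads per base of exon length scaled to the same total, 1000000, in each library. A single read on a transcript of 1000 bases was worth 0.0648 to 0.0872 TPM, depending on the library, so counting error is small for most genes described at 10 TPM or more, and the exceptions are named with their genes. The table has 20922 gene entries, of which 14625 carry an exon length, and 12438 had a read in at least 1 NSP library. Gene names are cut at 8 characters in the table, and 10916 entries had a name that could be used. Entries without one stayed in the totals and held 17.6% of all TPM. Library 3 stood somewhat apart from the other three: across the 5320 entries with a mean of 10 TPM or more, its log2 levels correlated with those of libraries 1, 2 and 4 at Pearson's r of 0.904, 0.925 and 0.928, against 0.953, 0.967 and 0.964 among the others. These are correlations across genes, which are not independent replicates. Since the value of each library is printed, each gene and list sum can be read without library 3, and the spread without library 3 is given after the most variable genes. By TPM, libraries 1 to 4 were the highest in 14%, 27.3%, 45.4% and 13.3% of these entries and the lowest in 48.9%, 12.1%, 25.4% and 13.6%. The order of the libraries for a gene can also turn with the scaling: with TMM factors, which set library totals by the bulk of the genes, or with the 50 most abundant entries left out of the totals, the highest library stayed the same for 133 and the lowest for 148 of the 173 genes named here that had a read.

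The NSP transcriptome was broad but top-heavy. In all 4 libraries, 7924 entries reached 1 TPM or more, which is 54.2% of the entries with an exon length, and 6908 of them had a usable name, 63.3% of the usable names with an exon length. By mean TPM, 1244 entries lay at 100 TPM or more and 155 at 1000 TPM or more. The 10 most abundant entries held 19.3% of all TPM, the first 100 held 48.2% and the first 1000 held 81.5%. It took 112 entries to reach 50% of the TPM and 2028 to reach 90%. Library 1 was the most concentrated, with 50% of its TPM in 85 entries, and library 3 the least, with 133. Libraries 2 and 4 lay between them at 113 and 103. Without length scaling, in CPM (reads scaled to that same total), the first 10 entries held 12.2% of reads and 265 entries made up 50%.

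**Figure D1:**
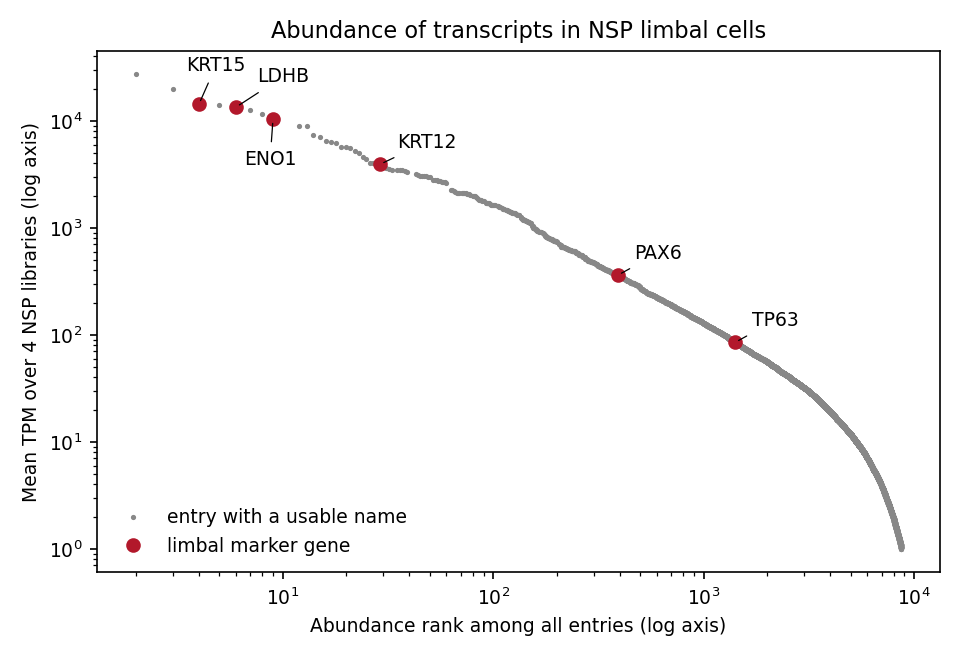
Mean TPM over the 4 NSP libraries (log axis) against abundance rank (log axis) for entries with a usable name at a mean of 1 TPM or more, with the 6 limbal marker genes labelled. KRT15, LDHB and ENO1 sit among the first 10 entries, KRT12 at rank 29, and the transcription factors PAX6 and TP63 lie further down at ranks 391 and 1409.

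All 6 marker genes of the limbal epithelium were present in every library. KRT15, the keratin of basal limbal cells, was the fourth most abundant entry of all, at 12460.3, 17654, 11658 and 15266 TPM in libraries 1 to 4 (mean 14259 ± 2741, SD, n = 4). Its highest library was 1.51 times its lowest. KRT12, the keratin specific to corneal-type differentiation, stood at 7256, 2832, 1686 and 3907 TPM, at rank 29 by mean TPM. The spread of KRT12 was the widest of the 6, 4.30-fold from library 3, the lowest, to library 1, the highest. KRT15 exceeded KRT12 in each of the 4 libraries, by 1.72, 6.23, 6.91 and 3.91 times.

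LDHB, the lactate dehydrogenase subunit that favours turning lactate into pyruvate, ranked 6 at 18102, 12363, 10149 and 13049 TPM. ENO1, the glycolytic enolase, ranked 9 at 12372, 11353, 7668 and 10021 TPM. Library 1 was the highest and library 3 the lowest for both, as for KRT12. PAX6, the master regulator of eye development that also maintains corneal identity, was at 269, 381, 506 and 287 TPM. TP63, the regulator of stratified epithelium and of its basal layer, was at 50.9, 83.8, 128 and 76.9 TPM. Both transcription factors were highest in library 3 and lowest in library 1, the reverse of the enzymes, although with TMM factors library 4 was the lowest for PAX6. In none of the 6 markers did any library fall below 50.9 TPM. Ranks by CPM instead of TPM were 612 for TP63 and 548 for PAX6. TP63 has an exon length of 5363 bases in the table and PAX6 of 1373.

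The most abundant entry, at 59574 ± 12669 TPM (SD, n = 4), had a LOC-type or otherwise unusable name and an exon length of 369 bases, and is not identified here. The first 30 entries by mean TPM held 3 such entries, 8 ribosomal protein genes, 2 translation factors, 4 genes of the S100 and annexin families and 2 keratins. S100A6, a small calcium-binding protein of growing epithelium, was the most abundant named gene by TPM, at 32847, 25498, 19198 and 31002 TPM. ANXA1, an annexin that binds membranes in a calcium-dependent way and dampens inflammation, followed at 13714, 16741, 33061 and 16657 TPM. The S100A6 level was lowest in library 3, whereas ANXA1 was highest there, 1.97 times the next library. Without length scaling, in CPM, HSPA8 ranked 1, ANXA1 ranked 2 and S100A6, with an exon length of 392 bases, ranked 12.

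EEF1A1, the elongation factor that delivers aminoacyl-tRNA to the ribosome, was at 16752, 15823, 8429 and 15713 TPM. HSPA8, the constitutive cytosolic chaperone, was at 8899, 13444, 16535 and 11149.7 TPM. SAT1, the enzyme that acetylates spermidine and spermine for their breakdown, was at 9592, 8570.4, 18454 and 10095 TPM, with library 3 above the rest. Near SAT1 in rank was SFN, stratifin, an epithelial adaptor that holds back the cell cycle, at 9794, 9551, 7708 and 9045 TPM, and its libraries lay within 1.27-fold of each other.

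Outside any list, PLAU, the urokinase that activates plasminogen, ranked 20 at 4579, 3866, 10129 and 4181 TPM, and library 3 was 2.21 times the next highest library. UBB, a polyubiquitin gene, was at 6697, 6406, 3785 and 5644 TPM. EMP1, a membrane protein of epithelia, was at 5513, 3667, 2590.3 and 4201 TPM, highest in library 1. MGARP, a mitochondrial protein described in cornea and steroid-making cells, was at 3469.8, 2974, 4221 and 3292 TPM and differed between libraries by 1.42-fold.

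**Figure D2:**
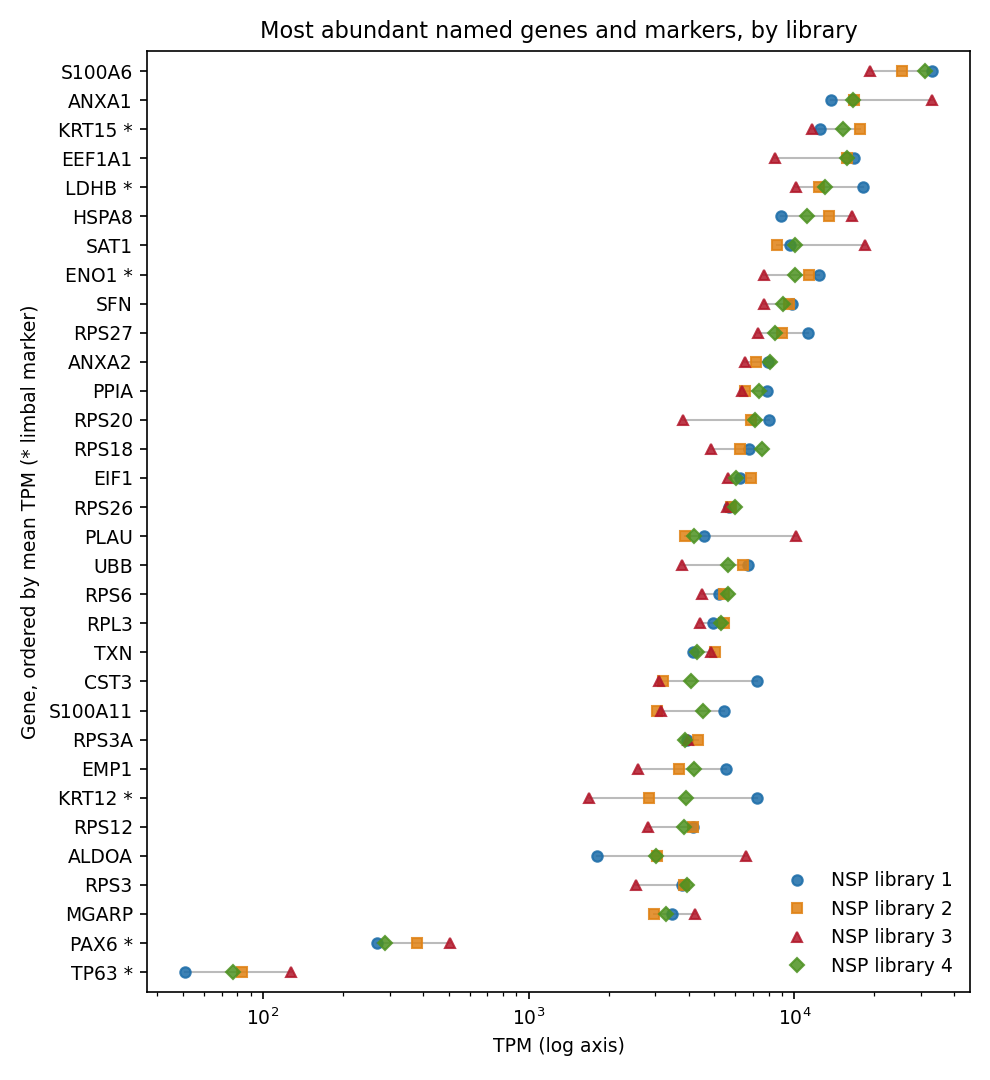
TPM in each of the 4 NSP libraries (log axis) for the 6 marker genes and the other most abundant genes with a usable name, ordered by mean TPM; 1 point per library. ANXA1, SAT1, PLAU and ALDOA are highest in library 3, while KRT12 and CST3 are highest in library 1.

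The list of limbal basal and progenitor genes had 22 members with a usable entry, and 19 reached 1 TPM in all 4 libraries, against 63.3% of all usable names. Their median level was 54.5 TPM, while the median over all usable names was 6.36 TPM. After KRT15, ATF3, a stress-inducible transcription factor, was the next highest at 3674, 4334, 2093 and 3678 TPM. KRT17, a keratin of basal and activated epithelium, was at 516, 814, 395 and 784 TPM. KRT19, a keratin of limbal and conjunctival cells, was at 447, 220.5, 274 and 359.7 TPM. These 2 keratins had different orders of libraries, KRT17 being lowest in library 3 and KRT19 in library 2. SOX9, a transcription factor of epithelial stem cell niches that was singled out after its values were seen, was at 93.3, 114, 33.6 and 16.1 TPM, so that libraries 3 and 4 lay well below libraries 1 and 2. ABCB5, a transporter used to mark limbal stem cells, averaged 0.0128 TPM, with reads in library 1 alone, and the stem cell gene BMI1 averaged 1.39 TPM. In bulk samples, fewer cells of a type and less RNA per cell cannot be told apart.

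Corneal differentiation genes were higher as a group, with a median of 401 TPM over 19 members, of which 18 reached 1 TPM in all 4 libraries. TGFBI, the extracellular matrix protein whose mutations cause corneal dystrophies, was at 3193, 3029, 3065 and 3098 TPM and was among the 10 steadiest genes above 100 TPM. CLU, the secreted chaperone clusterin, was at 2499, 2052, 2009 and 1708 TPM. FABP5, a fatty acid carrier of keratinocytes, was at 2299, 995, 877 and 1664 TPM. KRT3, the partner of KRT12, was at 2148, 1002, 935 and 1386 TPM. FABP5 and KRT3 repeated the order of KRT12, with library 1 highest, library 4 next and library 3 lowest. AQP5, a water channel of the corneal epithelium, was at 2838, 1065, 669 and 856 TPM, and library 1 stood 2.66 times above the next library. KLF4, a zinc finger factor of the differentiated layers that was also picked out after its values were seen, was at 212, 87.9, 55.5 and 66.0 TPM with the same library on top.

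Summed over its members, the corneal differentiation list gave 23681, 14262, 12392 and 15646 TPM in libraries 1 to 4, highest in library 1 and lowest in library 3, 1.91-fold apart. The limbal list gave 18418, 24690.1, 16246 and 21313 TPM, mostly KRT15, 1.52-fold apart, with library 2 highest and library 3 lowest. These orders at the ends were the same with TMM factors, and when the 50 most abundant entries were left out of the totals. Of the 18 corneal genes at 10 TPM or more, 11 were highest in library 1 against 14% of all entries, and 9 were lowest in library 3, against 25.4%. With TMM factors the counts were 13 and 10, against 28.5% and 35%. Of the 17 limbal genes at 10 TPM or more, 7 were highest in library 2, against 27.3%, and 7 were lowest in library 3, against 25.4%. With TMM factors these limbal counts were 4 and 7, against 18.1% and 35%.

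Genes typical of the neighbouring conjunctiva were clearly present. Of 12 conjunctival and goblet cell genes, 11 reached 1 TPM in all 4 libraries, with a median of 211 TPM. AQP3, a channel for water and glycerol, was at 3837, 4311, 1831 and 3783 TPM. Library 3 was the lowest for AQP3. KRT4, 1 of the mucosal keratin pair, was at 1526, 1354, 1550.3 and 2168 TPM. Its partner KRT13 was at 1078, 1727, 1506 and 2100.4 TPM. By TPM both were highest in library 4. KRT8, a keratin of simple epithelium, was at 381, 566, 488 and 459.8 TPM. MUC4, a membrane mucin of the ocular surface, was the least even of the 5, at 252, 74.96, 584 and 171 TPM. The list summed to 7699.7, 8576, 7075 and 9472 TPM and SPDEF, the transcription factor of goblet cells, averaged 0.322 TPM. The part of conjunctival cells in these levels was not tested.

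Cornified-envelope and surface genes were low by contrast. In that list 8 of 15 members reached 1 TPM in all 4 libraries, a share of 53.3% that lay close to the 63.3% of all usable names, and their median was 3.63 TPM. KRT10, a keratin of suprabasal epidermis, led at 341, 701, 434 and 557 TPM. The crosslinking enzyme TGM2 followed at 173, 76.6, 111 and 155 TPM. KRT1, the partner of KRT10, was much lower at 26.4, 83.1, 17.4 and 47.5 TPM. Loricrin and filaggrin, the defining proteins of the epidermal barrier (LOR and FLG), averaged 0.140 and 0.0662 TPM.

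Metabolic genes were strongly represented. The list of enzymes known to accumulate in corneal cells had a median of 1514 TPM over 21 members, all at 1 TPM or more in all 4 libraries, and together they held 5.17% of all TPM. PPIA, the cyclophilin that isomerises proline bonds, was at 7889, 6525, 6371 and 7375 TPM. ALDOA, the aldolase of glycolysis, was at 1809, 3031, 6553 and 3019.6 TPM. TKT, the transketolase of the pentose phosphate pathway, was at 3829.5, 3312, 3667 and 3007 TPM. ALDOA was the uneven one of these, 3.62-fold apart, while PPIA and TKT stayed within 1.24-fold and 1.27-fold.

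All 15 glycolysis genes with a usable entry passed 1 TPM in every library, and their summed level was 38298, 35563, 31952 and 33559 TPM. PKM, pyruvate kinase, was at 1179, 1973, 1784 and 1672 TPM. TPI1, triosephosphate isomerase, was at 1123, 1738, 2108 and 1599 TPM. GAPDH, often used as a reference gene, was at 1768, 2178, 504 and 1605 TPM, so library 3 was the lowest by far, 4.32-fold under library 2. By TPM the steadiest glycolytic genes were PGK1 and HK2, at SDs of 0.059 and 0.056 log2 units. The sum of the glycolysis list was 1.20-fold apart, dominated by LDHB and ENO1. Oxidative phosphorylation genes with a usable entry, 12 in number, had a median of 236 TPM and the lowest median SD of the 34 lists, 0.20 log2 units. ATP5A1 and ATP5B are the alpha and beta subunits of ATP synthase. ATP5A1 was at 1129, 1425, 1600.5 and 1401 TPM. ATP5B was at 1219, 1080.0, 708 and 1156 TPM.

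Redox defence genes had a median of 136 TPM, with 20 of 21 at 1 TPM or more in all 4 libraries. TXN, thioredoxin, was at 4144, 5010.2, 4846 and 4286 TPM. PRDX1, a peroxiredoxin, was at 2312, 2752, 3509 and 2691 TPM. GPX1, the selenium-containing glutathione peroxidase, was at 2114, 1742, 1958 and 2314 TPM. By TPM, GPX1 was lowest in library 2, TXN and PRDX1 in library 1. SOD1, the cytosolic superoxide dismutase, was at 1455, 1522, 2541 and 1771 TPM. PRDX6 was at 1627, 1567, 1533 and 1749 TPM. The 5 genes lay within 1.75-fold, and none had a library apart by 2-fold. Genes of cholesterol and lipid synthesis were far lower, with a median of 42.3 TPM and all 13 at 1 TPM or more in all 4 libraries, led by the fatty acid elongase ELOVL1 at 131, 105, 253 and 163 TPM.

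Translation was the other large block. The 22 cytosolic ribosomal protein genes of the list were all above 1 TPM in every library, had a median of 1957 TPM and summed to 60908, 54615, 41304 and 58766 TPM. RPS20, RPS18 and RPS6 are proteins of the small subunit. RPS20 was at 8023, 6889, 3814 and 7094 TPM. RPS18 was at 6746, 6259, 4854 and 7551 TPM. RPS6 was at 5187, 5448, 4491 and 5651 TPM. All 3 were lowest in library 3. RPL3, of the large subunit, was at 4944, 5446, 4431 and 5287 TPM. Of the 22, 17 were lowest in library 3 by TPM, against 25.4% of all entries, and 19 with TMM factors, against 35%. The sum was lowest there under TPM, with TMM factors and with the 50 most abundant entries left out. RPS26, not a member of the list, was steadier at 5671, 5752, 5570.2 and 5993 TPM, within 1.08-fold. Ribosomal protein genes have many near-identical copies in the genome, so their individual levels are uncertain. EIF1, a factor that selects the start codon, was at 6257, 6882, 5651 and 6041 TPM. EIF5A, which helps the ribosome through difficult peptide bonds, was at 2443, 2279.7, 3379 and 2666 TPM. All 18 translation factors passed 1 TPM in every library, at a median of 629 TPM.

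S100, annexin and serpin genes held 7.07% of all TPM, the largest share of any list, most of it from S100A6 and ANXA1. ANXA2, a partner of S100A10 at the plasma membrane, was at 7959, 7201, 6506 and 8118 TPM. CST3, the secreted protease inhibitor cystatin C, was at 7204, 3193, 3093 and 4089 TPM. S100A11, a calcium-binding growth regulator of keratinocytes, was at 5432, 3047, 3159 and 4526 TPM. Library 1 was the highest for CST3 and S100A11, and libraries 2 and 3 were the lowest, close to each other. S100A9, a subunit of calprotectin found in neutrophils and stressed epithelium, was low and uneven at 16.3, 67.9, 134 and 128 TPM.

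Adhesion genes of stratified epithelium were well represented. All 15 desmosome and hemidesmosome genes with a usable entry were present at 1 TPM or more in all 4 libraries, with a median of 238 TPM. COL17A1, the transmembrane collagen that anchors basal cells, was at 1404, 1751, 954 and 1408 TPM. PERP, a desmosomal membrane protein under TP63 control, was at 1439, 1326, 733 and 1521 TPM. Both were lowest in library 3. JUP, plakoglobin, was at 603, 533, 588 and 599 TPM. PKP1, plakophilin 1, was at 702, 540.0, 361 and 632 TPM. PKP1 was also lowest in library 3, while the libraries of JUP lay within 1.13-fold. The list as a whole did not follow these genes. Of its 14 members at 10 TPM or more, 8 were highest in library 3, against 45.4% of all entries. Only 4 were lowest there, against 25.4%. With TMM factors the counts were 7 and 5, against 35.8% and 35%. LAMA3, the laminin chain of the epithelial basement membrane, was the only member at 10 TPM or more whose libraries were 4-fold or more apart, at 134, 337, 965 and 247 TPM, with library 3 at 2.86 times the next.

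The 17 adherens, tight and gap junction genes were likewise all present, with a median of 254 TPM and none at 10 TPM or more was 4-fold apart. EPCAM, an epithelial adhesion molecule, was at 863, 1025, 625 and 893 TPM. CDH1, E-cadherin, was at 559.5, 581, 393 and 592 TPM. CLDN1 and CLDN7 are tight junction claudins. CLDN1 was at 1082, 684, 734 and 712 TPM. CLDN7 was at 829, 348, 443 and 532 TPM. Among cell-matrix genes 19 of 23 were at 1 TPM or more in all 4 libraries, with a median of 46.4 TPM. THBS1, the matricellular thrombospondin 1, led at 711, 475, 678 and 582 TPM. SPARC, a collagen-binding matricellular protein, was at 249, 461, 285 and 472 TPM. THBS1 was 1.497-fold and SPARC 1.90-fold apart. COL4A5, a basement membrane collagen chain, ranged over 52.5, 121, 259 and 93.7 TPM. CD44, the hyaluronan receptor, also picked out after its values were seen, was at 56.2, 55.2, 332 and 56.4 TPM, level in libraries 1, 2 and 4 and 5.89 times higher in library 3.

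Cytoskeletal genes were present throughout. All 19 reached 1 TPM in every library, at a median of 325 TPM. EZR, the ezrin that links actin to the membrane, was at 1843, 2142, 2386 and 2167 TPM. PFN1, the actin monomer binder profilin 1, was at 1657, 1767, 1728 and 2069.6 TPM. TMSB10, a thymosin, was at 2317, 1978, 1751 and 2451 TPM. These 3 lay within 1.29-fold, 1.25-fold and 1.40-fold. TUBA1B, an alpha tubulin whose close paralogs may share its reads, was less even at 1422, 1164, 635 and 1222 TPM. ACTN4, the actin crosslinker alpha-actinin 4, was at 1119, 808, 622 and 1129 TPM. Both were lowest in library 3, 2.24-fold and 1.82-fold under the highest.

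Among epithelial transcription factors, KLF5, a zinc finger factor of proliferating epithelium, was the highest and steady at 1057, 1279.6, 996 and 1116 TPM. ID1, an inhibitor of helix-loop-helix factors, was at 1047, 927, 459 and 835 TPM. ELF3 and EHF are ETS-family factors of differentiated epithelium. ELF3 was at 744, 584, 352 and 571 TPM. EHF was at 261, 366, 652 and 323 TPM. ELF3 was lowest and EHF highest in library 3, and library 1 was the reverse, highest for ELF3 and lowest for EHF. HES1, an effector of Notch signalling, was at 499, 411, 522 and 316 TPM. In all, 21 of 23 factors reached 1 TPM in all 4 libraries and their median was 103 TPM. ZEB1, a factor of mesenchyme, averaged 0.0714 TPM.

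Signalling genes were modest in level. The Wnt and Notch list had a median of 12.5 TPM, 20 of 23 members at 1 TPM or more in all 4 libraries and, among those at 10 TPM or more, none 4-fold apart. JAG1, a Notch ligand, was at 207, 208, 282 and 171 TPM. FRZB and DKK3 are secreted proteins of the families that bind Wnt ligands or their receptors. FRZB was at 145, 231, 189.7 and 235 TPM. DKK3 was at 129.8, 135, 74.0 and 137 TPM. In the EGF receptor pathway, 20 of 23 genes passed the same level, with a median of 36.2 TPM. HBEGF, a ligand, was at 318, 242, 520.2 and 250.1 TPM. ERRFI1, a feedback inhibitor of the receptor, was at 471, 865, 1586 and 865 TPM. DUSP6, a phosphatase of ERK, was at 277, 452, 303 and 351 TPM. The pathway's sum, to which ERRFI1 gave the most, was 1726, 2302, 3267 and 2194 TPM, lowest in library 1 and highest in library 3. Of its 15 members at 10 TPM or more, 8 were highest in library 3 by TPM, against 45.4% of all entries. Lowest in library 1 were 6, against 48.9%. With TMM factors the counts were 6 and 4, against 35.8% and 27.6%.

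Immediate early genes, which are transcribed within a short time of a stimulus, were abundant in all 4 libraries. All 25 members with a usable entry reached 1 TPM in all 4 libraries, with a median of 477 TPM. SGK1, a kinase induced by serum and steroid, was at 1946, 2456, 3872 and 2532 TPM. Library 3 was 1.53 times the next for SGK1. CYR61, a matricellular target of YAP, was at 1286, 1442, 1184 and 1389 TPM. ZFP36, which destabilises cytokine transcripts, was at 1202, 1297, 1067 and 1087 TPM. EGR1, a zinc finger factor, was at 822, 1435, 1311 and 833 TPM. ATF3, CYR61 and ZFP36 kept a similar order of size in every library. The list summed to 17249.5, 19463, 17206 and 16995 TPM, only 1.15-fold apart, with library 2 above the other three by TPM. With TMM factors library 1 was the highest instead.

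All 17 heat shock and unfolded protein genes were at 1 TPM or more in all 4 libraries, with a median of 198 TPM. They summed to 14167, 19625, 22011 and 16523 TPM, mostly HSPA8. CRYAB, a small heat shock protein, was at 1974, 2288, 1468 and 2042 TPM. PDIA3, a disulfide isomerase of the endoplasmic reticulum, was at 536, 733, 689 and 617 TPM. HERPUD1 and DNAJA1 are an endoplasmic reticulum stress protein and a co-chaperone. HERPUD1 was at 534, 553, 824 and 538 TPM. DNAJA1 was at 374, 702, 833 and 428 TPM. The list was lowest in library 1 and highest in library 3 under TPM and under both other scalings named above.

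Inflammatory genes differed widely in level, and their median SD was 0.35 log2 units, against 0.32 for all entries. NFKBIA, the inhibitor of NF-kB, was high and steady at 2211, 2179, 2430.5 and 1995 TPM. IL1RN, the interleukin 1 receptor antagonist, was at 528, 601, 1525 and 705 TPM. Library 3 was 2.16 times the next for IL1RN. NFKBIZ, a nuclear regulator of NF-kB, was at 417, 406, 681 and 447 TPM. CXCL8, a neutrophil chemokine, was at 257, 558, 227 and 185 TPM, and library 2 was 2.17 times the next. Of the 25 list members, 18 reached 1 TPM in all 4 libraries, at a median of 31.1 TPM.

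Interferon response and class I genes had 18 of 19 members at 1 TPM or more in all 4 libraries and a median of 35.3 TPM. B2M, the light chain of class I molecules, was at 1376, 1742, 3579.6 and 1768 TPM. The libraries were 2.60-fold apart for B2M. TAPBP, the chaperone tapasin, was at 89.8, 133, 199 and 129.7 TPM. PSMB8, an immunoproteasome subunit, was at 82.9, 71.3, 174 and 121 TPM. Library 3 was highest for each of these 3 genes, as for 45.4% of all entries. IRF1, an interferon-induced transcription factor, went the other way at 468, 518, 231 and 414 TPM. The list summed to 2406, 2943, 4987 and 3011 TPM, mostly B2M, highest in library 3 and lowest in library 1 under all 3 scalings. Of its 12 members at 10 TPM or more, 7 were highest in library 3 by TPM and also with TMM factors, against 45.4% and 35.8% of all entries.

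Few cell division genes were abundant. The 27 members with a usable entry had a median of 5.34 TPM, near the 6.36 TPM of all usable names, and 19 reached 1 TPM in all 4 libraries. PCNA, the sliding clamp of DNA replication, was the highest at 94.9, 169, 166 and 120.5 TPM. CDC20, an activator of the anaphase-promoting complex, was at 43.3, 65.3, 127 and 68.3 TPM. MCM4, MCM6 and MCM2 are subunits of the replicative helicase. MCM4 was at 42.8, 79.2, 58.6 and 51.2 TPM. MCM6 was at 25.5, 60.0, 68.8 and 46.1 TPM. MCM2 was at 22.0, 68.9, 41.0 and 46.3 TPM. All 5 genes, and the sum of the list, were lowest in library 1 under TPM and both other scalings. Of the 10 members at 10 TPM or more, 9 were lowest there by TPM, against 48.9% of all entries. With TMM factors 7 were, against 27.6%. The mitotic genes TOP2A and CDK1, picked out after their values were seen, were at lower levels than these 5 genes. TOP2A was at 1.93, 3.75, 4.94 and 2.28 TPM. CDK1 was at 0.701, 1.72, 2.30 and 1.69 TPM.

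Genes that restrain the cycle were higher, with CDKN1A, the p21 inhibitor of cyclin-dependent kinases, at 1195, 1694, 1650.3 and 1376 TPM. TOB1, an antiproliferative adaptor, was at 662, 1316, 3139 and 684 TPM. BTG1, of the same family, was at 518, 538, 367 and 529 TPM. Library 3 was thus the highest for TOB1 and the lowest for BTG1. CCND3, a G1 cyclin, was at 164, 119.6, 179.7 and 143.7 TPM. The list of cell cycle inhibitors and G1 genes had a median of 41.0 TPM over 16 members, 12 of them at 1 TPM or more in all 4 libraries.

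Transport genes separated into a few very high members and many low ones. In the ion and water transport list 21 of 23 reached 1 TPM in all 4 libraries, and the median was 168 TPM. CLIC1, a chloride intracellular channel protein, was at 1347, 1369, 2295 and 1653 TPM. SLC38A2, a neutral amino acid transporter, was at 688, 1681, 2999 and 774 TPM, 4.36-fold apart. ABC transporters, the family whose ABCG2 member drives dye exclusion, had a median of 14.7 TPM over 19 members, 15 of them at 1 TPM or more in all 4 libraries. The highest were members of the F subfamily, which have no membrane-spanning part. ABCF2 was at 60.9, 122, 182 and 104 TPM. ABCF3 was at 44.1, 64.4, 61.3 and 54.7 TPM. ABCF1 was at 38.2, 51.8, 49.7 and 53.3 TPM. ABCG2 itself is not analysed here, and ABCB1, the multidrug transporter, averaged 3.12 TPM.

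Markers of other cell types were low. Of 18 stromal and keratocyte genes, 7 reached 1 TPM in all 4 libraries and their sum was 80.1, 78.9, 65.4 and 87.2 TPM. DCN, the proteoglycan decorin, led at 31.6, 25.7, 35.0 and 32.3 TPM. VIM, vimentin, was at 12.7, 10.8, 11.7 and 21.3 TPM. KERA, LUM and COL3A1, which define keratocytes and stroma, had no read in any NSP library, which allows up to 3 reads in each. Vascular endothelial genes summed to 7.25, 11.6, 7.52 and 8.60 TPM and 1 of 15 reached 1 TPM in all 4 libraries, ESAM, a junction protein that epithelium can also make. PECAM1, CDH5 and VWF, the defining markers, averaged 0.0370, 0.0151 and 0.0587 TPM.

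Melanocyte genes summed to 178, 211, 126 and 262 TPM, highest in library 4 and lowest in library 3 under each of the 3 scalings. TYRP1, a melanosome enzyme, was at 59.4, 89.9, 51.4 and 86.0 TPM. PMEL, the melanosome fibril protein, was at 41.4, 26.2, 13.04 and 71.0 TPM. Both were lowest in library 3, 1.75-fold and 5.41-fold under the highest. RAB38, a small GTPase of melanosome transport, was at 54.7, 48.4, 19.4 and 52.8 TPM. TYR, the tyrosinase that makes pigment, was at 0, 0.199, 0 and 7.10 TPM, with no read in libraries 1 and 3. Of the 11 members, 5 reached 1 TPM in all 4 libraries. In albino animals the pigment cells are present but make no melanin.

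Leukocyte genes summed to 183, 221, 611 and 359.6 TPM, and 8 of 24 reached 1 TPM in all 4 libraries. CD74, the class II invariant chain, made up most of it at 105.7, 149.8, 505 and 284 TPM. CD68, a lysosomal protein of macrophages that other cells also carry, was at 23.6, 19.3, 43.3 and 23.1 TPM. PTPRC, the pan-leukocyte antigen CD45, averaged 0.122 TPM, and the B cell gene MS4A1 and the T cell gene CD8B had no read. Library 3, where the leukocyte sum was highest under all 3 scalings, was also the library with the highest class I and interferon sum, which was mostly B2M. The part of leukocytes in that result was not tested.

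Schwann cell and nerve genes summed to 95.5, 105.97, 98.4 and 105.8 TPM, nearly all from ERBB3 and NGFR, receptors that epithelium also makes, with 3 of 12 at 1 TPM in all 4 libraries. Among red blood cell genes CA2, carbonic anhydrase 2, was at 114, 837, 196 and 487 TPM, 7.33-fold apart and highest in library 2. The other 6 members of that list averaged less than 1 TPM each, 0.464 TPM at the most, and CA2 is made by many epithelia. Reference genes used for scaling in other work summed to 12889, 12657, 12576 and 12793 TPM, 1.02-fold apart by TPM and 1.27-fold with TMM factors, although within the list library 3 was the lowest for GAPDH and the highest for B2M.

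**Figure D3:**
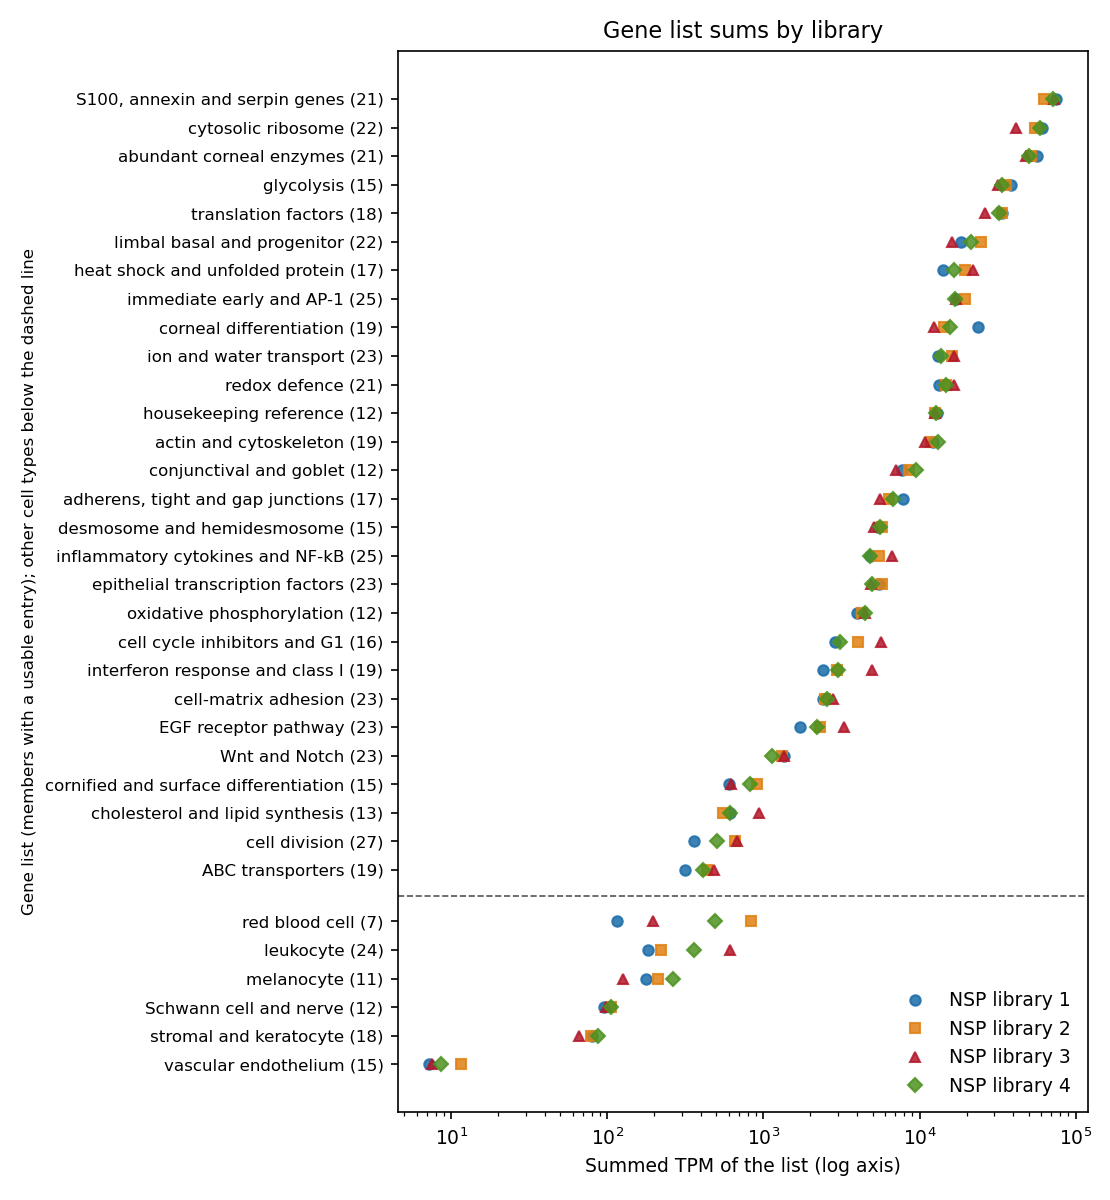
Summed TPM of each gene list in each of the 4 NSP libraries (log axis), 1 point per library, epithelial and metabolic lists above and lists of other cell types below. The upper lists run from 314 to 75338 TPM, against 7.25 to 838 TPM for the stromal, endothelial, melanocyte, leukocyte, nerve and red blood cell lists.

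Variation between the libraries was moderate for most genes. Among the 5320 entries at a mean of 10 TPM or more, the SD of log2(TPM + 0.1) over the 4 libraries had a median of 0.32, with quartiles at 0.22 and 0.47. Counting error alone would give a median SD of 0.041, and in 91.0% of entries the SD was more than 3 times its counting share. The highest library was a median of 1.65 times the lowest. In 1904 entries (35.8%) the libraries lay within 1.5-fold of each other, and in 211 (3.97%) they were 4-fold or more apart. Without library 3 the median SD was 0.23 and the share at 4-fold or more 1.20%. Without library 1 the values were 0.29 and 2.29%.

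Abundant genes were not much steadier than moderate ones. The median SD was 0.36 log2 units at 10 to 30 TPM, 0.28 at 100 to 300 TPM and 0.32 above 1000 TPM. By list, the median SD was lowest for oxidative phosphorylation (0.20), followed by cell cycle inhibitors (0.25) and the abundant corneal enzymes (0.27). It was 0.56 for corneal differentiation, 0.54 for interferon and class I genes and 0.52 for conjunctival genes. Of the corneal differentiation genes 3 of 18 were 4-fold or more apart, of the ribosomal genes 1 of 22 and of the oxidative phosphorylation genes 0 of 12, read against 3.97% over all entries.

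**Figure D4:**
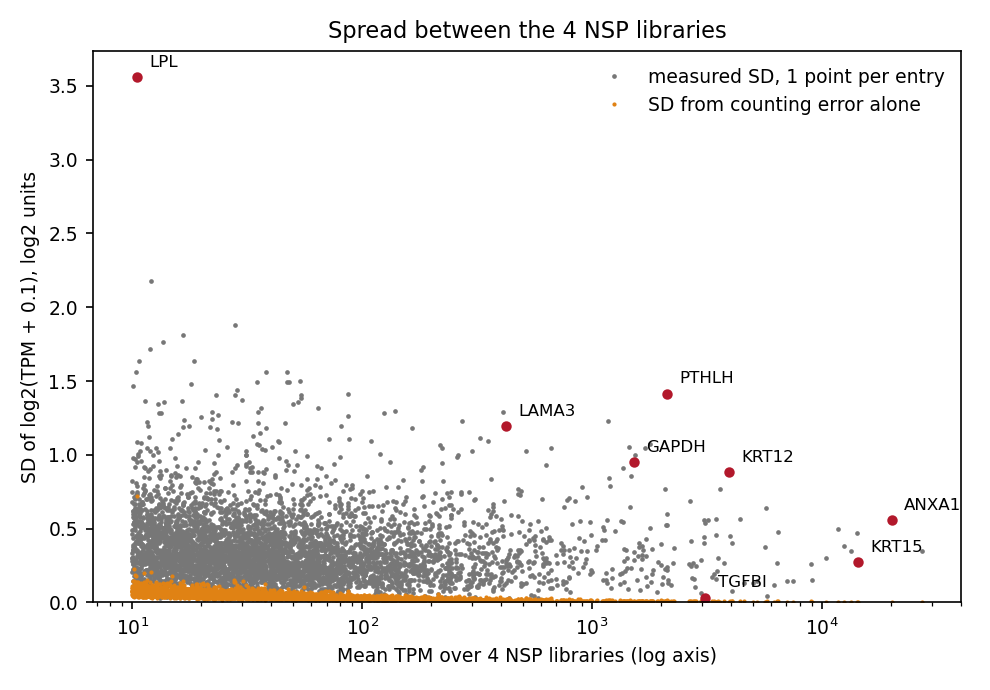
SD of log2(TPM + 0.1) over the 4 NSP libraries against mean TPM (log axis) for entries with a usable name at a mean of 10 TPM or more, 1 point per entry, with the counting SD of each entry in orange and some genes labelled. The measured SD lies above the counting SD for nearly all entries, and PTHLH stands out among the abundant ones at 1.42.

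The steadiest genes above 100 TPM were TGFBI, GNB2, UFC1, BAG3, NEDD8, PGRMC1, MRPS36, EIF3H, MRPL37 and RPS26, all with SDs of 0.03 to 0.045 log2 units. Their steadiness holds on the TPM scale: with TMM factors their SDs were 0.11 to 0.17. GNB2, a G protein beta subunit, was at 571, 582, 570.3 and 596 TPM. UFC1 and NEDD8 are of the conjugation systems for ubiquitin-like proteins. UFC1 was at 199.9, 198, 202 and 192 TPM. NEDD8 was at 425, 447, 432 and 442 TPM. The highest library was 1.05 times the lowest for both. BAG3, a co-chaperone of HSP70, was at 204, 195, 199 and 195 TPM. PGRMC1, a haem-binding membrane protein, was at 228, 228, 226 and 238 TPM. MRPS36 and MRPL37 are named for the mitochondrial ribosome, and EIF3H belongs to the initiation factor that recruits the small subunit.

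At the other end, PTHLH, the parathyroid hormone-like secreted hormone, had the largest SD of any named gene above 1000 TPM, at 493, 1418, 5325 and 1222 TPM (10.8-fold). Library 3 was the highest and library 1 the lowest, and without library 3 its SD fell from 1.42 to 0.83 log2 units. SEMA3A, an axon guidance cue, was at 18.0, 15.3, 150.3 and 30.3 TPM. HAS2, a hyaluronan synthase, was at 9.27, 34.1, 118 and 28.3 TPM. GFRA1, a receptor for the GDNF family, was at 8.44, 9.53, 74.6 and 21.6 TPM. These 4 were highest in library 3, and without it the SDs of the last 3 were 0.51, 1.01 and 0.73.

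Another set was highest in library 1. ETS1, a transcription factor, was at 127, 30.9, 10.3 and 24.4 TPM. BARX2, a homeobox factor, was at 135, 22.7, 11.2 and 18.9 TPM. Library 1 was 4.10 times the next for ETS1 and 5.97 times for BARX2. USP5, a ubiquitin protease, was at 49.9, 4.67, 2.68 and 9.63 TPM. LYPD6B, a membrane-anchored protein of the LY6 family, was at 32.0, 1.64, 13.3 and 7.64 TPM. RGAG4, of retrotransposon origin, was at 27.2, 7.80, 1.60 and 6.398 TPM. Without library 1 their SDs were 0.83, 0.53, 0.91, 1.52 and 1.20 log2 units, against 1.495, 1.56, 1.81, 1.76 and 1.64 with it.

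Some genes were shared by 2 libraries or missing from 1. POU3F3 and ZFP36L2 are a POU-domain factor and a regulator of mRNA decay. POU3F3 was at 55.2, 45.8, 5.62 and 4.81 TPM. ZFP36L2 was at 64.7, 56.8, 24.8 and 6.03 TPM, with libraries 1 and 2 above library 4. KRT20, a keratin of gut and urothelium, was at 11.7, 47.6, 3.95 and 8.88 TPM, highest in library 2. MRC2, a collagen receptor, was at 10.2, 23.3, 1.40 and 12.8 TPM. MRC2 was lowest in library 3, 15.6-fold under the highest. LTF, the antimicrobial lactoferrin of tears, was at 5.59, 46.9, 36.6 and 49.9 TPM. IFIT1B, an interferon-inducible protein, was at 1.79, 7.77, 22.2 and 8.40 TPM. LTF and IFIT1B were both lowest in library 1. TMEM45B, a membrane protein, was at 10.04, 0.694, 20.2 and 17.6 TPM. GDF3, a TGF-beta family ligand, was at 13.1, 1.46, 16.5 and 10.6 TPM. TMEM45B and GDF3 were both lowest in library 2. LPL, lipoprotein lipase, had no read in library 3 and was at 8.78, 21.1 and 12.1 TPM in libraries 1, 2 and 4. These genes rest on fewer reads than most. The counting SD was 0.21 log2 units for TMEM45B, 0.18 for GDF3, 0.14 for POU3F3 and 0.13 for LYPD6B. For LPL it was 0.72, because its 0 reads in library 3 were counted as 1. Libraries 1, 2 and 4 held 490, 961 and 578 reads of LPL. Each counting SD lay below the measured SD of its gene.

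Without library 3, several genes named above became much more even by TPM. Their SDs without it were not recomputed with TMM factors, so how even the remaining libraries were is known for TPM only. The SD of CD44 went from 1.28 to 0.017 log2 units, that of PLAU from 0.64 to 0.12 and that of ANXA1 from 0.56 to 0.16. For GAPDH it went from 0.95 to 0.23, for EEF1A1 from 0.47 to 0.051, for SAT1 from 0.50 to 0.12 and for B2M from 0.60 to 0.20. ALDOA kept more of its spread, 0.43 against 0.77. LAMA3, at 7.22-fold over 4 libraries, was 2.52-fold apart over libraries 1, 2 and 4. Among list sums, the cytosolic ribosome was 1.47-fold apart with library 3 and 1.12-fold without it. The interferon and class I sum, mostly B2M, was 2.07-fold and 1.25-fold apart. The EGF receptor pathway was 1.89-fold and 1.33-fold apart, and the leukocyte sum 3.34-fold and 1.97-fold.

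The libraries differed in how often they stood alone. Library 3 was at least 2 times each of the other three in 171 entries (3.21% of those at 10 TPM or more) and at most 1/2 of each in 129 (2.42%). For library 1 the counts were 26 (0.489%) and 46 (0.865%), for library 2 they were 10 (0.188%) and 38 (0.714%), and for library 4 they were 1 (0.0188%) and 12 (0.226%). By TPM, named genes at 2-fold above the rest in library 3 included PLAU, ALDOA, PTHLH, B2M, LAMA3, TOB1, IL1RN, MUC4 and CD44, and GAPDH was among those at or below 1/2.

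The balance of library 3 turned with the scaling. By TPM, the median entry of library 3 lay 0.18 log2 units above the mean of the other three, and that of library 1 lay -0.23 from the mean of its others. With TMM factors all 4 libraries lay within 0.029 of the others. Library 3 then had 121 entries at 2-fold above and 185 at 2-fold below, so that 39.5% of its entries apart were high, against 57% by TPM. In CPM the counts were 117 and 193. Library 3 had more entries apart than any other library under each of these scalings.

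**Figure D5:**
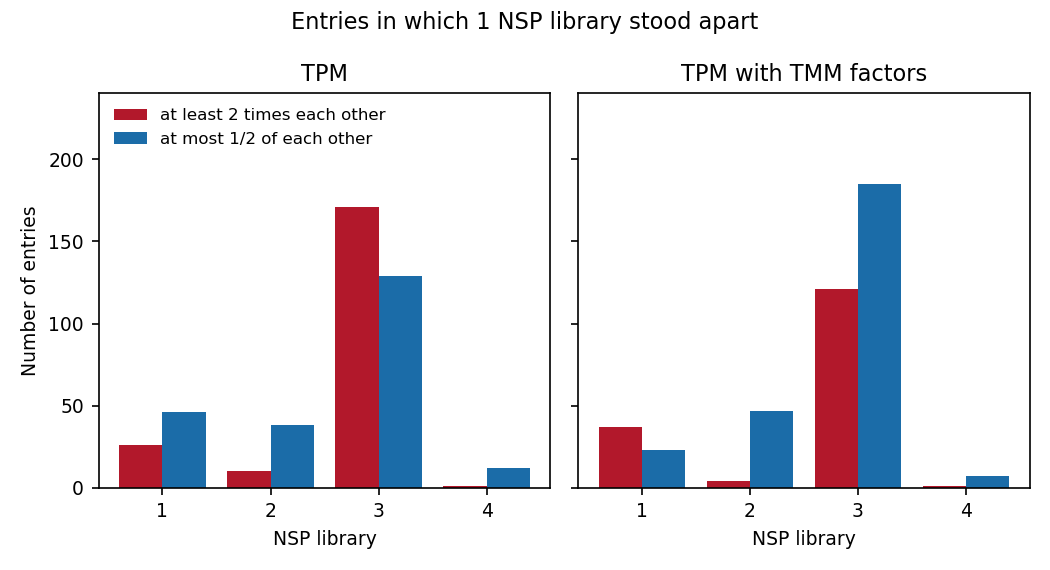
Number of entries (mean of 10 TPM or more) in which each NSP library was at least 2 times, or at most 1/2 of, each of the other three, by TPM and with TMM factors. Library 3 has the most entries apart in both directions under both scalings, and library 4 the fewest.

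Transcript length differed between the entries that set library 3 apart. The 171 entries 2-fold higher there had a median exon length of 2725 bases, the 129 entries 2-fold lower 1612 bases, and all entries at 10 TPM or more 2361 bases. For library 1 the entries above and below had medians of 2068 and 2471 bases. For library 2 the 10 entries above had a median of 1603.5 bases and the 38 below 1518.5, so short low entries were not particular to library 3. For library 4 the 12 entries below had a median of 3281.5 bases, and the 1 entry above had 292. The part of transcript length in the position of library 3 was not tested.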

How the data were processed

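RNA-seq of 4 NSP libraries was used. The authors deposited 1 table with many fields per library, beside their own comparison values, which were not used. Its headers are cut short and name only the group, so what a field holds was read from the values: 1 field per library, all whole numbers, was taken as the count of exon reads, and a field that is the same in every library was taken as the exon length in bases. The table is laid out in 163 fields of 8 characters, so values were read by character position; 6 fields were used and 157, which include those of other libraries, were not. Which aligner, genome build and annotation were used is not given in the sources used here, and no coordinates or sequences are printed. Names cut at 8 characters were used where complete (10603 entries) or where they matched exactly 1 RefSeq symbol of mOryCun1.1 (313 entries). Antisense or overlapping genes and near-identical copies may share reads.

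Exon read counts were divided by exon length and scaled to a total of 1000000 per library (TPM). Spread is the SD of log2(TPM + 0.1) over the 4 libraries among entries at a mean of 10 TPM or more. The counting SD is what Poisson noise alone would give, with a library that had no read counted as 1 read. A library stands alone where it is at least 2 times, or at most 1/2 of, each other library. With 1 group there was no contrast, and no test between groups was made; Dixon's ratio was used only to mark single libraries far from the rest. The steps were tested on simulated data. Python 3.11.15, NumPy 2.4.6, pandas 2.3.3, SciPy 1.17.1 and matplotlib 3.10.9 were used.

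The 34 gene lists held 858 distinct genes, 569 with a usable entry; the other 289 are not analysed here. Members, lists and measures were chosen with earlier results of these data known. Genes were named by rule: the 6 markers, the 30 of highest mean TPM, up to 5 of highest mean TPM per list, defining markers of other cell types, the 20 of largest SD, the 10 of smallest SD at 100 TPM or more, and the 10 of highest mean TPM in no list. A few genes that meet these criteria are left unreported. ABCB1, ABCB5, BMI1, CD44, CDK1, FLG, HK2, KLF4, LOR, PGK1, SOX9, SPDEF, TOP2A and ZEB1 were added after their values were seen. Alternatives were CPM (no length scaling), TMM factors, entries without a usable name or the 50 most abundant left out of the totals, thinning to the smallest library, medians over libraries, other minimums and pseudocount, and each library left out.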

Additional observations from a re-analysis of the deposited data

Results flagged for a closer look

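Some named genes and list sums had 1 library far from the other three, by the gap to the nearest library as a share of the whole range (beyond Dixon's critical value for 4 samples). By TPM, this was so for 19 of 173 genes and 2 of 34 list sums. The ratio was taken on TPM alone and was not recomputed with TMM factors. Since the balance of library 3 turned with the scaling, the flags below describe the TPM scale only. The named genes include some chosen for a large spread or after their values were seen, so their share is not read against chance, which gives about 1 in 20. Among all entries at a mean of 10 TPM or more the share was 6.84% (364 entries), of which 188 had library 3 high.

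Library 3 stood high for 7 of these genes. ANXA1 was at 33061 TPM there against 13714 to 16741 in the others. SAT1 was at 18454 TPM against 8570.4 to 10095. PLAU was at 10129 TPM against 3866 to 4579. HERPUD1 was at 824 TPM against 534 to 553, and NFKBIZ was at 681 TPM against 406 to 447. CD44 was at 332 TPM against 55.2 to 56.4. SEMA3A was at 150.3 TPM against 15.3 to 30.3. The summed cholesterol and lipid synthesis list was at 939 TPM in library 3 against 552 to 615.

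Library 3 stood low for 4 genes. EEF1A1 was at 8429 TPM there against 15713 to 16752 in the others. CDH1 was at 393 TPM against 559.5 to 592, and BTG1 was at 367 TPM against 518 to 538. DKK3 was at 74.0 TPM against 129.8 to 137.

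Library 1 stood high for CLDN1, at 1082 TPM against 684 to 734, for BARX2, at 135 TPM against 11.2 to 22.7, and for USP5, at 49.9 TPM against 2.68 to 9.63. Library 4 was high for PGRMC1, at 238 TPM against 226 to 228, a narrow range, and for TYR, at 7.10 TPM against 0 to 0.199. Library 2 was high for the summed immediate early and AP-1 list, at 19463 TPM against 16995 to 17249.5. With TMM factors library 1 was the highest for this sum and for PGRMC1. For 3 genes the library apart held a level below 1 TPM: ABCB5 at 0.0512 TPM in library 1 and CDH5 at 0.0604 TPM in library 4, both with no read elsewhere, and VWF at 0.212 TPM in library 2 against 0 to 0.0226. These rest on 4, 2 and 23 reads in the library apart.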

How the results depend on the processing

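Of 157 recomputed values of the detection, concentration, spread, marker ranks, list counts and library 3 counts, 142 stayed close to the reported value and 15 moved. Close here means within 1.5 times for counts, shares at 4-fold and SDs, and within 1 SD of the 4 libraries for ranks and the top 10 share, which is wide for uneven genes. In CPM, without length scaling, the 10 most abundant entries held 12.2%, 50% took 265 entries, and ENO1, TP63, PAX6 and KRT12 ranked 7, 612, 548 and 11. At 5 TPM, 5817 entries were detected in all 4 libraries. The top 10 share was 17.2% with entries without a usable name left out of the totals and 4.41% with the 50 most abundant left out, when 50% took 337 entries. At a minimum mean of 1 TPM, 9.24% of entries were 4-fold or more apart. Leaving out 1 library at a time gave 8003 to 8131 entries at 1 TPM or more, a top 10 share of 19.04 to 20.1%, 102 to 119 entries for 50%, a median SD of 0.23 to 0.36 and 1.20 to 3.66% at 4-fold or more (2.29% without library 1 and 1.20% without library 3). Ranks without 1 library were 4 to 6 for KRT15, 24 to 52 for KRT12, 8 to 10 for ENO1, 4 to 8 for LDHB, 1326 to 1574 for TP63 and 361 to 436 for PAX6. Entries with library 3 at least 2 times the others numbered 196 to 314 and those at most 1/2 numbered 166 to 179 when another library was left out, with 314 without library 2; fewer libraries to pass raise such counts, and these alternatives were chosen after seeing the data.

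For named genes, 1599 of 1720 recomputed ranks and 1372 of 1570 SDs stayed close. Of the 121 ranks that moved, 85 did so in CPM, out of the 172 recomputed there, so the ranking depends strongly on length scaling. Each other setting moved at most 14 of 172 ranks. No paired analysis was possible because only 1 group was described and no test was made. Depth limits only low entries: 1 read on 1000 bases was worth 0.0648 to 0.0872 TPM. That the 4 libraries may not be separate animals, and that reads of unusable entries could not be assigned, limit what the spread and ranks describe.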
